A study of Rattus norvegicus with 8 samples.

Results

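The cell cycle genes described here are 40 genes chosen by name, which encode cyclins and their kinases, inhibitors of these kinases, the replicative helicase, enzymes of deoxynucleotide supply and proteins of mitosis. Of the 40, 39 had at least 1 probe set (a group of short probes for 1 transcript) that the platform annotation pairs with exactly 1 gene symbol, 54 sets in all among 31042 and 39 genes among 14217 on the array, and Rrm2 was not analysed here. Each gene is given by its brightest probe set over the 8 arrays. A total of 19 genes lay above the filter on dim signal, which leaves out the dimmest 50% of probe sets and starts at a mean signal of 34.4 units. The other 20 lay below it. They are marked as dim here and enter no count of calls.

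Liver RNA came from male Goto-Kakizaki rats, an inbred, lean strain with inherited type 2 diabetes, aged 18 weeks. The persimmon peel group of 4 rats ate AIN-93G, a purified rodent diet, with an added extract of persimmon peel for 12 weeks, and the control group of 4 rats ate AIN-93G alone for the same time. The dose of extract is not given in the sources used here, and there was no non-diabetic strain. Signals came from 1-colour expression arrays, 1 per liver.

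Adult hepatocytes rest outside the cycle and can return to it after injury or loss of tissue. Entry runs through D-type cyclins, which with Cdk4 or Cdk6 phosphorylate the retinoblastoma protein and free E2F factors to drive genes of DNA replication. Cyclin E, cyclin A and cyclin B kinases then carry the cell through S phase and mitosis, while inhibitor proteins such as those of Cdkn1a and Cdkn1b hold the kinases back. In resting cells the DREAM complex keeps mitotic genes low through promoter elements called CHR, while CCAAT boxes in the same promoters bind NF-Y, an activator.

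In these livers the genes of mitosis were dim on both diets, all 6 genes of growth arrest and 4 of 5 D-type cyclin and kinase genes were above the filter, and 3 of 5 genes of G1 to S control were dim. Cdkn1b and Ccng2, which both restrain the cycle, were lower in the persimmon peel livers, and 0 of the 19 tested genes were higher. These 2 of 19 genes, or 10.5%, compare with 1.93% of the brightest sets of all 9174 tested genes called lower, 0.469% called higher and 2.4% called in either direction (limma, Benjamini-Hochberg adjusted p under 0.05). Over all 15521 tested probe sets, 4.53% were lower and 0.425% higher. At an unadjusted p under 0.05 there were again 2 lower and 0 higher, and that share of 10.5% lower was close to the 9.48% of all brightest sets, with 6.8% higher. The median log2 fold change of the 19 genes was -0.06, against 0.01 over the brightest sets of all tested genes, with 10 genes negative and 9 positive. The arrays of the diets did not overlap in the same 2 genes, both lower, a pattern that 7.21% of the brightest sets showed downward and 3.24% upward.

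**Figure D1:**
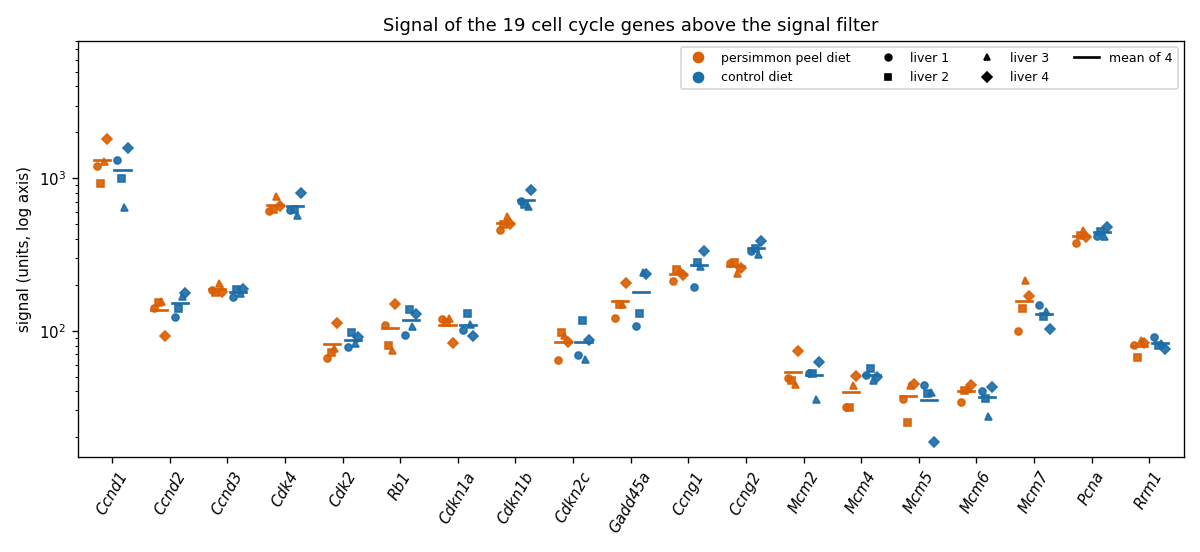
Signal (units, log axis) of the 19 tested cell cycle genes in each of 4 persimmon peel livers (orange) and 4 control livers (blue), with the mean as a bar. Cdkn1b and Ccng2 are the genes whose groups lie apart; brightness differs between probe sets for technical reasons, so heights are not compared across genes.

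The 6 genes of growth arrest were all tested, and they held both calls. Cdkn1b encodes an inhibitor that binds cyclin E and cyclin A kinases and keeps resting cells out of S phase. Its signal was 461, 504, 569 and 502 in persimmon peel livers 1 to 4, against 715, 678, 653 and 839 in control livers 1 to 4. Every persimmon peel liver lay below every control liver. The means were 509 ± 44.5 on the persimmon peel diet and 721 ± 82.5 on the control diet (SD, n = 4 each), a log2 fold change of -0.50 (SE 0.10, limma adjusted p = 0.0128), or a change of -29.3%. The other probe set of Cdkn1b was dim, between 0.525 and 12.5 on all arrays, so the fall rests on 1 set.

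Ccng2 encodes cyclin G2, an unusual cyclin linked to cell cycle arrest rather than progress. Its signal was 278, 282, 238 and 259 in the persimmon peel livers, against 335, 351, 318 and 386 in the control livers. The groups did not overlap here either. The means were 264 ± 20.4 and 348 ± 29.2 on the persimmon peel and control diets (SD, n = 4 each), a log2 fold change of -0.40 (SE 0.10, limma adjusted p = 0.0436). Ccng2 had 1 probe set. Both Cdkn1b and Ccng2 are known targets of FOXO transcription factors, which insulin signalling switches off.

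The call of Cdkn1b held in 6 of 8 fits that left out 1 array and was lost without persimmon peel liver 1 (-0.45, adjusted p = 0.0521) or control liver 4 (-0.43, adjusted p = 0.0524). The call of Ccng2 held only without persimmon peel liver 2 (-0.43, adjusted p = 0.0337). Without each other array its adjusted p lay between 0.0573 and 0.142, with a log2 fold change between -0.44 and -0.34, so the call was lost without any 1 of those 7 arrays. With the replicate number as a block the adjusted p was 0.0226 for Cdkn1b and 0.0836 for Ccng2. The labels do not say whether livers of the same number belong together.

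**Figure D2:**
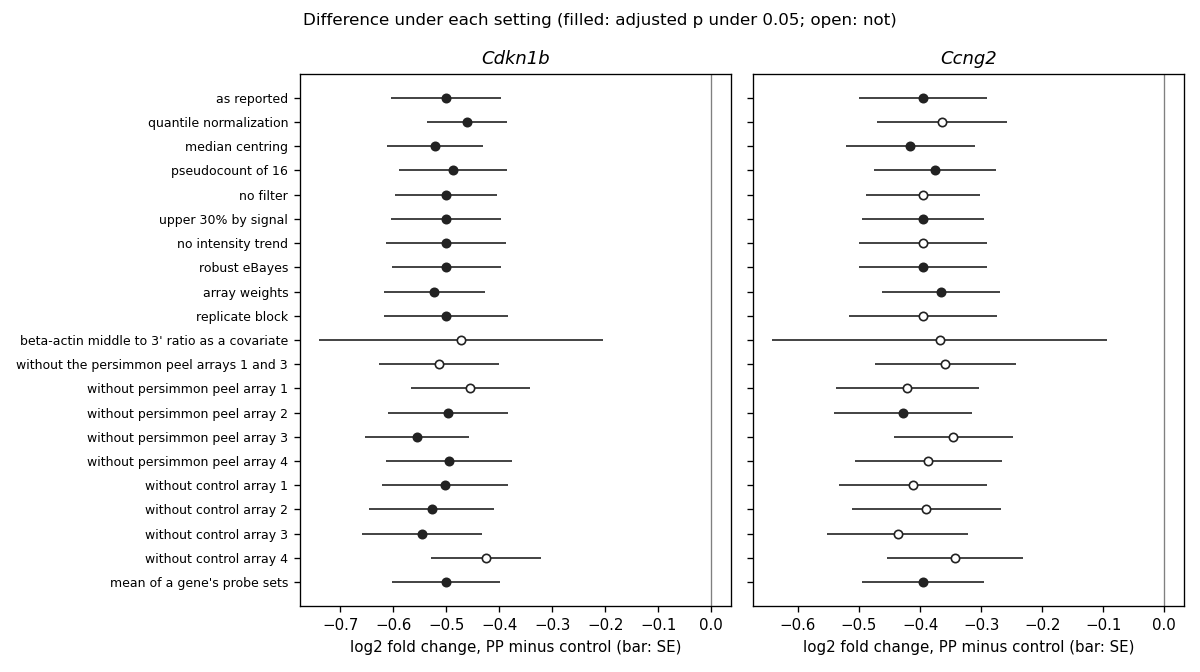
Log2 fold change (x axis, persimmon peel minus control, bar: SE) of Cdkn1b and Ccng2 under each setting (rows); filled points have an adjusted p under 0.05. The values of Cdkn1b stay between -0.56 and -0.43 and those of Ccng2 between -0.44 and -0.34, while the filled points of Ccng2 number 8 with the reported fit.

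A control ratio for RNA quality moved with the same contrast. Beta-actin has control sets along its transcript, and its middle set over its 3' set, in log2, was -1.18, -0.92, -1.09 and -1.06 in the persimmon peel livers, against -0.76, -0.77, -0.75 and -0.78 in the control livers (difference -0.30; p = 0.0286 by an exact two-sided permutation, which with 4 and 4 livers can go no lower; 0.0571 after adjustment over 4 ratios). The 5' set over the 3' set of beta-actin had -1.97 ± 0.22 and -1.68 ± 0.12 on the persimmon peel and control diets (SD, n = 4 each; exact permutation p = 0.0286). Both GAPDH ratios overlapped between the diets. The difference was -0.0063 for GAPDH middle to 3' (exact permutation p = 0.857) and -0.14 for GAPDH 5' to 3' (exact permutation p = 0.0857). With the middle to 3' ratio of beta-actin as a covariate the values were -0.47 (SE 0.27) for Cdkn1b and -0.37 (SE 0.27) for Ccng2. In that fit limma called 0 probe sets of the whole array, with 543 at an unadjusted p under 0.05, and as every persimmon peel liver had a lower ratio than every control liver, ratio and diet could hardly be separated. Without persimmon peel livers 1 and 3 the values were -0.51 (adjusted p = 0.0657) and -0.36 (adjusted p = 0.191). The position of these 2 probe sets along their transcripts was not analysed here, so a lower level of the whole transcript and a weaker signal of 1 part cannot be told apart.

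Summed signals of 2 marker lists for cell types lay apart between the diets. Of the 10 hepatocyte markers all 10 were tested. Their summed signal was 82110 to 86024 in the persimmon peel livers and 89199 to 95633 in the control livers, without overlap. Of these 10 genes 1 was called lower, and the 2 brightest, Ahsg and Serpina1, overlapped between the diets. How often sums over other genes lie apart was not computed. The 5 B and plasma cell markers with a probe set summed to 816 to 1055 against 704 to 811, also apart, but 2 of the 5 were above all Bacillus control sets on every array. Those 2 were Sdc1, which hepatocytes also express (674 ± 58.3 against 548 ± 87.3, SD, n = 4 each), and Jchain (164 ± 53 against 169 ± 34.4, SD, n = 4 each). The sums of the other 7 marker lists overlapped between the diets. Of 42 tested marker genes in 9 lists, 2 were called lower, Tat, a hepatocyte enzyme of tyrosine breakdown, and Fcgr2b, a receptor of liver endothelium, and 0 higher, against 1.93% lower and 0.469% higher among all brightest sets; these 2 are named after their values were seen. In whole liver, fewer cells of a type and less RNA per cell cannot be told apart, and the part of these sums in the falls of Cdkn1b and Ccng2 was not tested.

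The remaining genes of this group did not pass the test. Cdkn1a, an inhibitor and classic p53 target, had 110 ± 18.2 units in persimmon peel livers and 108 ± 16.1 in control livers (SD, n = 4 each), with a log2 fold change of 0.01 and a 95% interval of -0.32 to 0.34. Ccng1, another p53 target, had 237 ± 19.6 and 269 ± 57.0 units on the persimmon peel and control diets (SD, n = 4 each; log2 fold change -0.16, interval -0.47 to 0.15). Cdkn2c, which blocks Cdk4 and Cdk6, changed by 0.02 with an interval of -0.39 to 0.44. The interval of Ccng1 includes the -0.40 of Ccng2, that of Cdkn2c ends just above it, and that of Cdkn1a ends at -0.32. A smaller fall in any of the 3 cannot be told from no change.

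Gadd45a, a gene of the stress response, varied widely between rats of the same diet. It had 121, 149, 151 and 204 units in the persimmon peel livers, against 107, 131, 242 and 237 in the control livers. Control livers 3 and 4 were high and control livers 1 and 2 low, so the groups overlapped (log2 fold change -0.13, interval -0.64 to 0.38). Its residual SD of 0.48 on the log2 scale was above that of 98.9% of 3312 tested sets of like signal.

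**Figure D3:**
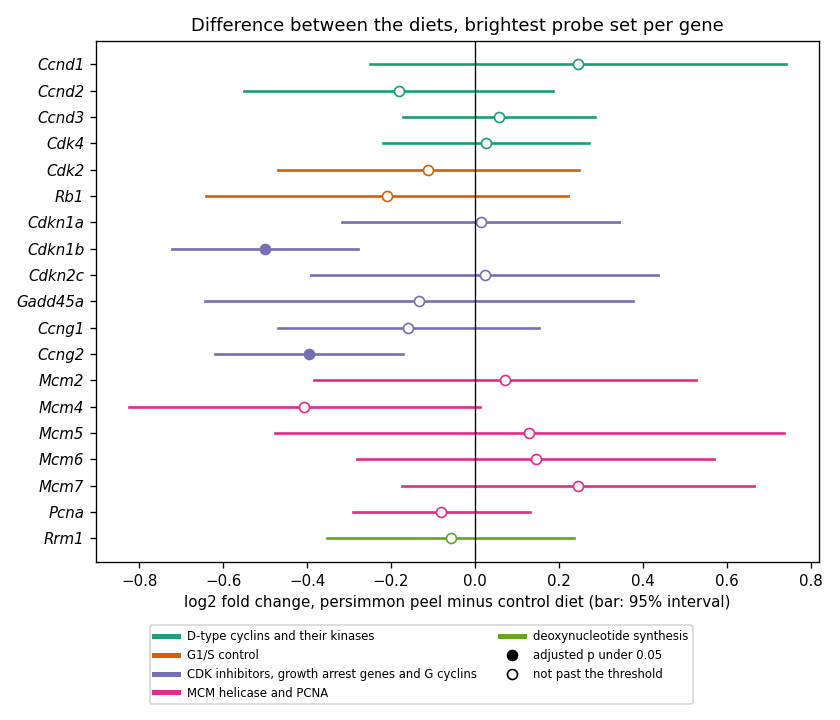
Log2 fold change (x axis, persimmon peel minus control diet) of the 19 tested genes with 95% intervals, coloured by role; filled points have an adjusted p under 0.05. Cdkn1b at -0.50 and Ccng2 at -0.40 are filled, and the intervals of the other 17 genes include 0.

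Of the 5 D-type cyclin and kinase genes, 4 were tested and 0 passed. Ccnd1, which encodes cyclin D1, the main mitogen sensor of hepatocytes, was the cell cycle gene with the largest spread between rats for its signal. Its brightest set had 1203, 935, 1299 and 1821 units in the persimmon peel livers, against 1323, 1007, 644 and 1570 in the control livers. Persimmon peel liver 4 was the highest and control liver 3 the lowest, and the groups overlapped. The residual SD of 0.49 on the log2 scale was above that of 99.7% of 940 tested sets of like signal.

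The other probe sets of Ccnd1 showed the same livers as highest and lowest. The second set had 1101, 1049, 1277 and 1500 units in the persimmon peel livers, against 1005, 1161, 639 and 1157 in the control livers. The third had 540, 457, 669 and 723 units in the persimmon peel livers, against 492, 469, 260 and 541 in the control livers. In all 3 sets persimmon peel liver 4 was highest and control liver 3 lowest. The log2 fold changes were 0.25 (adjusted p = 0.596), 0.34 (adjusted p = 0.281) and 0.47 (adjusted p = 0.205) in limma, none past the threshold. Without control liver 3 the value of the brightest set was -0.0021, and those of the other sets in that fit are not given here.

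**Figure D4:**
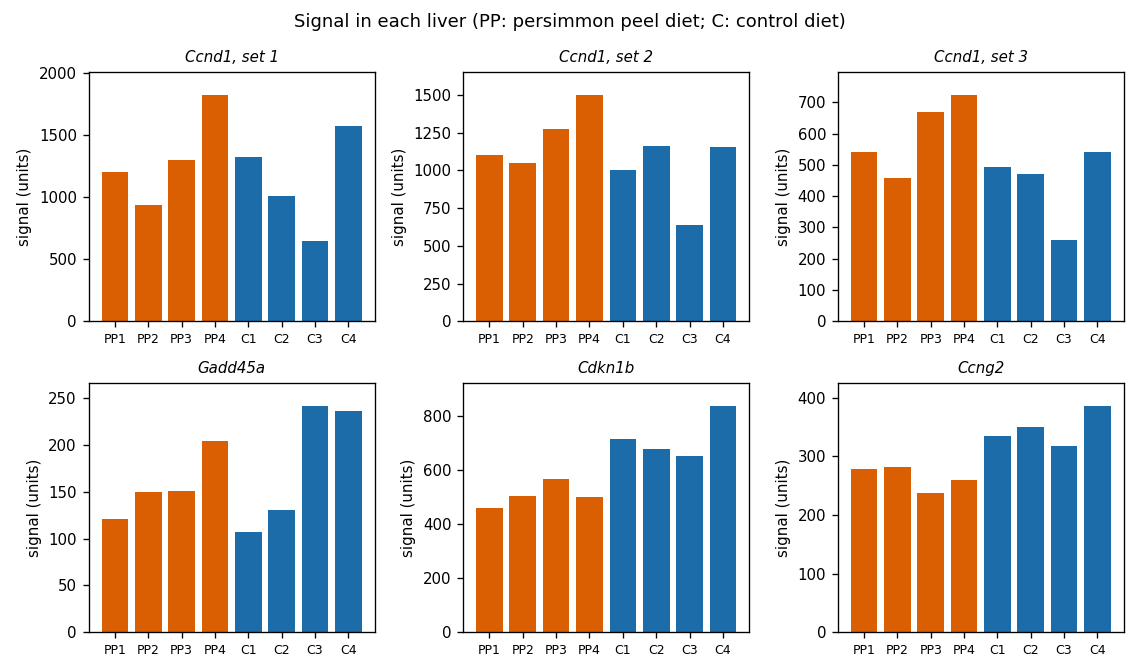
Signal (units) in each persimmon peel liver (PP1 to PP4, orange) and control liver (C1 to C4, blue) for the 3 probe sets of Ccnd1 and for Gadd45a, Cdkn1b and Ccng2. The bars of Ccnd1 are lowest in C3 in all 3 sets, and those of Cdkn1b and Ccng2 are lower in every PP liver.

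The other D-type cyclins and Cdk4 varied less. Ccnd3 had 187 ± 13.2 units in persimmon peel livers and 180 ± 9.93 in control livers (SD, n = 4 each), a log2 fold change of 0.06 with an interval of -0.17 to 0.29. Cdk4, the kinase partner of the D-type cyclins, had 664 ± 68.3 and 655 ± 102 units on the persimmon peel and control diets (SD, n = 4 each; log2 fold change 0.03, interval -0.22 to 0.27). For Ccnd3 and Cdk4 these intervals leave out a fall as large as the -0.40 of Ccng2. Ccnd2 had 136 ± 29.7 units in persimmon peel livers and 152 ± 24.8 in control livers (SD, n = 4 each; log2 fold change -0.18, interval -0.55 to 0.19).

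Cdk6, the other kinase partner of D-type cyclins, was dim. It had 6.26 to 19.8 units in the persimmon peel livers and 1.11 to 7.62 in the control livers, and 1 of the 8 arrays was above the highest Bacillus control set of that array. Without the filter it was the dim gene with an unadjusted p under 0.05, higher on the persimmon peel diet, and its adjusted p was 0.257.

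For G1 to S control, 2 of 5 genes were tested and 0 passed. Rb1, the retinoblastoma protein that holds E2F factors, had 104 ± 34.2 units in persimmon peel livers and 117 ± 20.7 in control livers (SD, n = 4 each; log2 fold change -0.21, interval -0.64 to 0.22). Cdk2, the kinase of cyclins E and A, changed by -0.11 in its brightest set and by -0.07 in its other tested set. Ccne1 and Ccne2, which encode the E cyclins, and the transcription factor gene E2f1 were dim. Ccne1 had 18.0 to 38.2 units on the persimmon peel diet and 14.9 to 32.1 on the control diet, and Ccne2 25.6 to 31.9 and 26.1 to 38.0 units, in ranges that overlapped.

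Of the 7 genes for the MCM helicase, which unwinds DNA at origins, and for PCNA, the sliding clamp of DNA polymerases, 6 were tested and 0 passed. Pcna had 419 ± 33.8 units in persimmon peel livers and 442 ± 30.2 in control livers (SD, n = 4 each), a log2 fold change of -0.08 with an interval of -0.29 to 0.13. Mcm4 had 31.6, 31.7, 43.8 and 50.7 units in the persimmon peel livers, against 51.6, 57.1, 47.3 and 49.4 in the control livers. Persimmon peel livers 1 and 2 were the low ones, and liver 4 lay within the control range (log2 fold change -0.41, SE 0.20, limma adjusted p = 0.269).

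Mcm7, another helicase subunit, had 99.8, 141, 214 and 169 units in the persimmon peel livers, against 148, 126, 136 and 102 in the control livers, a log2 fold change of 0.25 (SE 0.20, limma adjusted p = 0.522). The lowest and the highest Mcm7 value were both in persimmon peel livers, so the groups overlapped. Mcm2, Mcm5 and Mcm6 changed by 0.07, 0.13 and 0.14, each with an interval that included 0. Mcm3 was just below the filter, at a mean signal of 30.8, and had 29.5, 37.1, 35 and 40.7 units in the persimmon peel livers against 29.2, 27.3, 24.4 and 27.0 in the control livers. It was the dim gene whose groups did not overlap, although persimmon peel liver 1 and control liver 1 were nearly equal, and in the fit with no filter its log2 fold change of 0.39 had an adjusted p of 0.474. The tested subunits had values on both sides of 0, none past the threshold, and differences between subunits were not tested.

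Deoxynucleotide supply showed 0 calls. Rrm1, the large subunit of ribonucleotide reductase, had 79.6 ± 8.71 units in persimmon peel livers and 82.6 ± 6.51 in control livers (SD, n = 4 each), a log2 fold change of -0.06 with an interval of -0.35 to 0.24. Tyms, which makes thymidylate, was dim, at 19.1 to 25.3 units on the persimmon peel diet and 19.3 to 27.0 on the control diet.

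None of the 14 genes of S phase to mitosis reached the filter: 6 for the later cyclins and their activators, 5 proliferation markers and mitotic kinases and 3 of the spindle checkpoint. The 27 probe sets for Bacillus transcripts, which a rat liver does not make, gave a measure of background, and the brightest of them reached 14.5 units on any array. Bub1b, a checkpoint kinase, and Plk1, a mitotic kinase, exceeded the brightest Bacillus set of the same array on 0 of 8 arrays. Mki67, which encodes the proliferation marker Ki-67, exceeded it on 3 arrays, with 5.66 to 16.3 units in the persimmon peel livers and 5.05 to 14.3 in the control livers. Cdk1, the kinase that drives mitosis, exceeded it on 5 arrays, with 0.995 to 21.8 units against 4.87 to 14.1. Ccna2, the cyclin of S phase and G2, did so on 3 arrays, and Aurkb, a kinase of chromosome segregation, on 4.

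Others of these genes were brighter than background on most arrays without reaching the filter. Ccnb2 and Mad2l1, a B cyclin and a checkpoint protein, exceeded the brightest Bacillus set on all 8 arrays, and Ccnb1, Top2a and Aurka on 7. Top2a, the topoisomerase that untangles replicated DNA, had 19 to 24.8 units on the persimmon peel diet and 9.12 to 30.7 on the control diet. Cdc25b, a phosphatase that activates cyclin kinases, ranged from 14.5 to 42.0 units on the persimmon peel diet and from 9.91 to 57.9 on the control diet, and Cdc20, an activator of the anaphase-promoting complex, from 14.1 to 23.9 and from 9.44 to 20.3. Bub1, a checkpoint kinase, exceeded background on 6 arrays. For all 14 the arrays of the diets overlapped.

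In the fit with no filter limma called 0 of the 20 dim genes, 10 with a positive and 10 with a negative log2 fold change, where it called 0.2% of all probe sets below the filter. An unadjusted p under 0.05 was found in 1 of the 20 and in 7.21% of those sets, and groups that did not overlap in 1 of the 20 and in 4.74% of those sets. Cdkn1b stayed lower there (adjusted p = 0.0246), and Ccng2 did not pass (adjusted p = 0.0607). No difference between the diets was thus detected in these dim genes, which does not show that it was absent. The number of cycling cells was not measured.

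**Figure D5:**
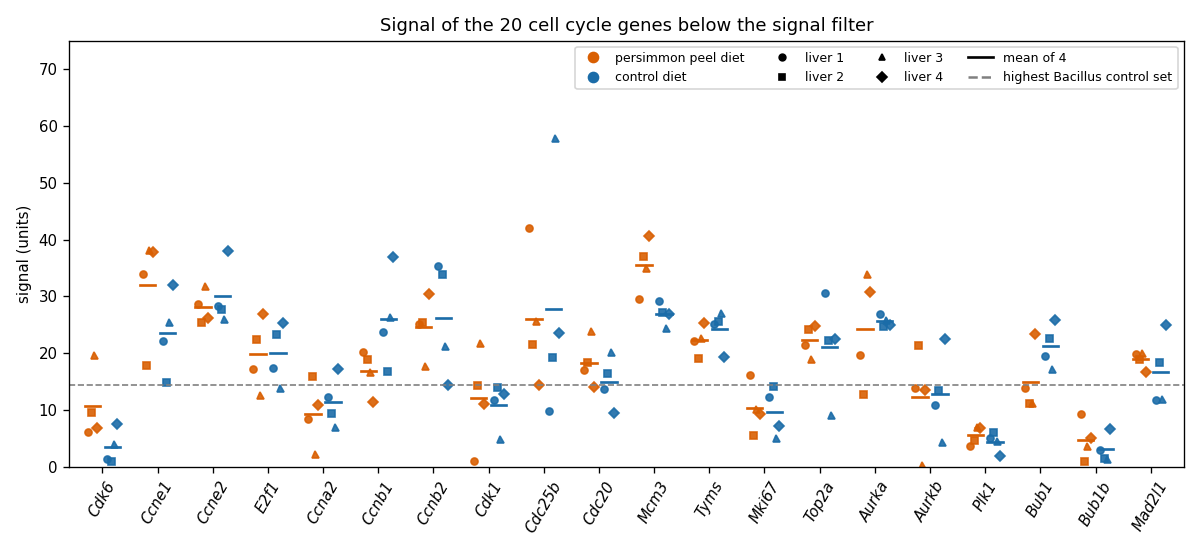
Signal (units) of the 20 dim cell cycle genes in each persimmon peel liver (orange) and control liver (blue), with means as bars; the dashed line marks 14.5 units, the highest value of any Bacillus control set. The groups overlap in every gene except Mcm3, and Plk1 and Bub1b lie under the line in all 8 livers.

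Promoter sequence was set beside these values because the called genes and the dim mitotic genes are held to be controlled through different elements. The RefSeq promoter table (build GRCr8) held 31 of the 39 genes. Those missing were the tested genes Ccnd1, Ccnd2 and Mcm4 and the dim genes Cdk6, Ccne2, E2f1, Ccna2 and Aurkb. The 250 bases before each start were searched on both strands for CCAAT, for the CHR letters TTTGAA, for the E2F letters TTCCCGC and for the FOXO letters TGTTTAC, which do not overlap in the sequences shown. They were lower-cased, with any match to these letters in capitals, and are given 5' to 3' on the gene's strand. Cdkn1b (chr4:169491254-169491503, + strand) and Ccng2 (chr14:15097191-15097440, - strand), the genes called lower, are shown over all 250 bases.
Cdkn1b: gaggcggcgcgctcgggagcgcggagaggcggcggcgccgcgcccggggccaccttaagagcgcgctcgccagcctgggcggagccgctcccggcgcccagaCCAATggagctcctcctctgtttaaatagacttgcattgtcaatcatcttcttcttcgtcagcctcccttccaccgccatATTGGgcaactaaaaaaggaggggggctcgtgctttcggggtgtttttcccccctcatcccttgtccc
Ccng2: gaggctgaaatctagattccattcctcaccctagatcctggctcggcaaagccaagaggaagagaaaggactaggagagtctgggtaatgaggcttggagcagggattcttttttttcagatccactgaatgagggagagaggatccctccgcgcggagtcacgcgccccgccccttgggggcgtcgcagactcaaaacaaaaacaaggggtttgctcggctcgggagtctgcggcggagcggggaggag

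Neither window held TGTTTAC, which says only that these letters are not in this stretch. Cdkn1b had CCAAT on each strand, and Ccng2 had a match to none of the 4 motifs. Over 27457 promoters, 34.3% held CCAAT, 16.03% TTTGAA, 3.58% TTCCCGC and 3.25% TGTTTAC.

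The mitotic genes Cdk1 (chr20:19265143-19265292, + strand), Ccnb2 (chr8:79981659-79981808, - strand) and Cdc20 (chr5:137255800-137255949, - strand) are shown over the last 150 bases before the start. They are examples of genes that hold both CCAAT and TTTGAA there. Mki67 and Top2a also hold both in that stretch and are not shown.
Cdk1: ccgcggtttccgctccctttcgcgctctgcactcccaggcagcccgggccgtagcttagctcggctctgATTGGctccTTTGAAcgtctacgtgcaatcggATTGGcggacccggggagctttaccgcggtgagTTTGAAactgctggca
Ccnb2: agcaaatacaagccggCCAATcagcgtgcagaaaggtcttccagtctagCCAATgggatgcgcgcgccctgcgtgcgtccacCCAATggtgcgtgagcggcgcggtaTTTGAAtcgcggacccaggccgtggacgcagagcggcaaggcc
Cdc20: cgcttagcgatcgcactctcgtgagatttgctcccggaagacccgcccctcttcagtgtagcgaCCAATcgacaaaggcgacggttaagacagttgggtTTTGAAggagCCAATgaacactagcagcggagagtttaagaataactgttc

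CCAAT was found in 9 of 15 dim and 10 of 16 tested genes with a promoter. TTTGAA was found in 5 of the 15 dim genes (Ccnb2, Cdc20, Cdk1, Mki67 and Top2a) and in 1 of the 16 tested genes, Mcm2. TTCCCGC was found in 0 of the 15 dim and 5 of the 16 tested genes, which were Cdk2, Mcm5, Mcm7, Rb1 and Rrm1. The dim genes E2f1, Ccne2 and Ccna2 were among those not searched. TGTTTAC was found in 1 of the 15 dim genes, Top2a, and in 0 of the 16 tested genes. Matches to letters are a description of the sequence and were not tested against the signals.

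Genes of 8 other lists, which cover the cycle, cyclins and kinases of transcription, p53 targets and mitogens of liver regeneration, had few calls. Of 182 genes listed, 159 had a probe set and 105 were tested, with 2 lower, 1 higher, and 1.93% lower among all brightest sets as the background. Both lower genes belonged to the list of liver regeneration mitogens and receptors (2 of 11 tested, median log2 fold change -0.01). Met, the receptor of hepatocyte growth factor, had 25.6, 48.6, 32.2 and 31.3 units in the persimmon peel livers, against 67.2, 63.7, 74.9 and 68.4 in the control livers, without overlap (log2 fold change -1.03, SE 0.20, limma adjusted p = 0.00895). Met lay near the filter on the persimmon peel diet, so the size of its fall is uncertain. Its call held in 8 of 8 fits that left out 1 array (-1.21 to -0.90, limma adjusted p of 0.00127 to 0.0364). That call was lost without persimmon peel livers 1 and 3 (-0.81, limma adjusted p = 0.104). With the beta-actin ratio as a covariate the value of Met was 0.04 (SE 0.42), in a fit that could hardly separate ratio and diet.

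Egf, the gene of epidermal growth factor, had 220, 225, 230 and 264 units in the persimmon peel livers, against 365, 350, 246 and 372 in the control livers. Control liver 3 lay below persimmon peel liver 4, so the groups overlapped (log2 fold change -0.49, SE 0.13, limma adjusted p = 0.0494). The call of Egf held in 1 of 8 fits that left out 1 array, the one without control liver 3 (adjusted p = 0.0128), and the others gave 0.0564 to 0.153. The higher gene was Plk2, a p53 target and stress kinase, 1 of 15 tested genes of the p53 list (median 0.0060). Plk2 had 413, 358, 473 and 439 units in the persimmon peel livers, against 262, 282, 360 and 308 in the control livers, and control liver 3 was just above persimmon peel liver 2 (log2 fold change 0.48, SE 0.12, limma adjusted p = 0.0356). The call of Plk2 held without persimmon peel liver 2 (0.0145) or control liver 3 (0.0269) and was lost without each other array (0.0838 to 0.115).

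The other 6 lists had 0 calls. For origin licensing and the replication fork 25 of 43 genes were tested (median log2 fold change -0.02), with the smallest p in Mcm10 (-0.53, adjusted p = 0.101) and Rpa3 (-0.21, adjusted p = 0.276). For the anaphase-promoting complex and SCF ligases 20 of 21 were tested (median -0.03), led by Skp1 (-0.28, adjusted p = 0.0536) and Cks1b (-0.27, adjusted p = 0.167). SCF with Skp2 and Cks1b is the ligase that marks the protein of Cdkn1b for breakdown. For RB, E2F and MuvB factors 13 of 18 were tested (median -0.08), led by E2f6 (-0.33, adjusted p = 0.0883) and E2f5 (-0.40, adjusted p = 0.147).

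The rest followed the mitotic genes or held no call. Of 36 spindle, kinetochore and cytokinesis genes, 30 had a probe set and 4 were tested (median 0.03), among them Incenp (0.44, adjusted p = 0.32) and Bub3 (0.07, adjusted p = 0.758). Of 13 other inhibitors, checkpoint kinases and phosphatases 5 were tested (median 0.0070), led by Chek1 (0.51, adjusted p = 0.0732), with Wee1 at 0.04. Of 13 cyclins and kinases of transcription 12 were tested (median -0.10), led by Ccnl1 (-0.46, adjusted p = 0.0593) and Ccnt2 (0.31, adjusted p = 0.187). All these adjusted p come from the limma fit over the whole array.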

How the data were processed

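Liver RNA of 8 rats was measured on 1-colour Affymetrix arrays. The authors deposited 1 linear intensity per probe set and array, for 31099 sets. MAS5 is the tool in the submitters' processing notes; the sources used here give neither its version nor a scaling target. Values were used as deposited, in log2 with no pseudocount. The 57 control sets and the dimmest 50% by mean log2 signal were left out, which left 15521 sets. Array medians were 33.2 to 39.2 units, and arrays correlated with r of 0.967 to 0.986. Precision is limited by having 4 arrays a diet.

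The diets were compared with limma 3.58.1 in R 4.3.3 (lmFit, eBayes with an intensity trend, two-sided, persimmon peel minus control), with Benjamini-Hochberg adjustment over all tested sets and calls at an adjusted p under 0.05. SE and 95% intervals are moderated. Of 31042 other sets, 20826 had 1 symbol, 436 several and 9780 none. Symbols were updated through RefSeq (GRCr8), in which 20758 were found. The fit was also run on simulated data with independent noise for each set. Such data held no array effects or differences in RNA quality, and the outcome is not given here. Livers are numbered as in the labels. The limma p-values set the diet difference against the spread between these livers, moderated by an intensity trend over all tested sets.

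The members, lists and alternatives were chosen with earlier results of these data known. Named are all 39 genes, the called genes of each other list or else the 2 with the smallest p, and the 2 brightest genes of each marker list, of which Ahsg (-0.09) and Serpina1 (-0.08) for hepatocytes, C1qa (0.21) and Clec4f (0.20) for macrophages, Lyve1 (-0.24) and Kdr (-0.10) for endothelium, Col3a1 (-0.13) and Lrat (-0.30) for stellate cells, Epcam (0.0025) for bile ducts, Prf1 (0.35) and Cd4 (-0.20) for T and NK cells, and Hbb (-0.05) and Tfrc (-0.36) for erythroid cells had no call (log2 fold changes). Krt19 for bile ducts and the neutrophil genes S100a9 and Csf3r were dim.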

Additional observations from a re-analysis of the deposited data

Results flagged for a closer look

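Of 52 groups of 4 livers examined, 1 held a liver far from the other 3 by Dixon's test, where chance flags about 1 group in 20. Mcm2, a subunit of the replicative helicase, had 74.1 units in persimmon peel liver 4, against 44.5 to 48.7 units in the other persimmon peel livers. The same liver also had the highest Ccnd1 signal in all 3 probe sets. Without it the log2 fold change of Mcm2 was -0.09, against 0.07 with all arrays, and it passed the test in neither fit.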

How the results depend on the processing

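The fall of Cdkn1b kept its sign in all 20 alternatives and its call in 16, and that of Ccng2 kept its sign in 20 and its call in 7. The count of cell cycle genes called lower was 2 under median centring, a pseudocount of 16, the upper 30% by signal, robust eBayes, array weights and averaging over each gene's sets. It was 1 under quantile normalization, with no filter, without the intensity trend and with the replicate block, and 0 with the beta-actin ratio as a covariate or without persimmon peel livers 1 and 3. Leaving out 1 array gave 0 to 2, and no alternative called a cell cycle gene higher. With the replicate block, Cdkn1b had an adjusted p of 0.0226 and Ccng2 0.0836. Livers of the same number correlated with r between -0.085 and 0.054 in their deviations, so no pairing was seen over the array. The labels do not say whether such livers belong together.

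Over the array, 703 sets were lower and 66 higher. Lower sets numbered 441 with no filter, 75 without persimmon peel livers 1 and 3, 0 with the covariate (543 at an unadjusted p under 0.05), and 295 to 942 with 1 array left out. Higher sets numbered 271 under quantile normalization, 26 with no filter, 41 in the upper 30%, 33 without the trend, 0 with the covariate, 1 without persimmon peel livers 1 and 3, and 12 to 267 with 1 array left out. Lower calls made up 91.4% of all calls, and 68.7% under quantile normalization. With the covariate the median over all sets shifted to -0.11. In the other pathway lists 2 genes were lower: 1 under quantile normalization, no filter, the upper 30% or no trend, 4 with robust eBayes, 0 with the covariate or without persimmon peel livers 1 and 3, and 1 to 6 with 1 array left out. The 1 higher gene became 2 under quantile normalization or the replicate block, 0 with no filter, the covariate or without persimmon peel livers 1 and 3, and 0 to 1 with 1 array left out. Marker genes called lower were 2, with 1 under quantile normalization or no trend, 0 with the covariate or without persimmon peel livers 1 and 3, and 2 to 3 with 1 array left out, while higher ones were 0 to 1.

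Values that changed sign belonged to genes without a call, except Met, which changed sign with the covariate (SE 0.42). With the covariate these were Ccnd1 (-0.38), Ccnd3 (-0.062), Cdk4 (-0.065), Cdk2 (0.014), Cdkn1a (-0.069), Gadd45a (0.20), Ccng1 (0.037), Mcm2 (-0.039), Mcm5 (-0.35), Pcna (0.017) and Met (0.039). Without persimmon peel livers 1 and 3 they were Ccnd3 (-0.0076), Cdk4 (-0.014), Cdk2 (0.058), Cdkn1a (-0.14) and Gadd45a (0.053). Cdkn1a was -0.0075 under median centring, and under array weights Cdkn1a was -0.043 and Cdkn2c -0.048. With 1 array left out the ranges were -0.0021 to 0.43 for Ccnd1, -0.042 to 0.13 for Cdk4, -0.060 to 0.14 for Cdkn1a, -0.089 to 0.20 for Cdkn2c, -0.35 to 0.041 for Gadd45a, -0.095 to 0.17 for Mcm2, -0.15 to 0.31 for Mcm5 and -0.10 to 0.023 for Rrm1. The control ratios ranged from -0.34 to -0.26 (beta-actin middle to 3'), -0.33 to -0.18 (beta-actin 5' to 3'), -0.027 to 0.011 (GAPDH middle to 3') and -0.18 to -0.10 (GAPDH 5' to 3'). The causes of these changes were not tested. Dim signal limits the 20 genes below the filter.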
